A study of Arabidopsis thaliana with 16 samples.

Results

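The comparison described here is the first 3 h at 28 °C in Arabidopsis plants carrying zed1-D, an allele of ZED1 that acts dominantly. It rests on 4 of the 16 libraries of the series, 2 taken at 0 h and 2 at 3 h, chosen by genotype and time and paired by their replicate number. All plants, mutant and wild type (WT), were of the Columbia-0 ecotype and were raised at 18 °C under 16 h of light and 8 h of dark until the primary stem had bolted to between 0.5 and 1.0 cm. The 0 h plants had spent no time at 28 °C, and the 3 h plants had been moved there. Tissue was the inflorescence with juvenile leaves, although another label calls the material seedlings, and mRNA was caught on (dT) beads and sequenced. Whether a replicate was its own plant, a pool of plants or a repeat of the sequencing is not stated, so the p-values speak for the spread among these libraries alone. The clock time of sampling is not given either, so 3 h of warmth and 3 h of the day cannot be told apart.

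ZED1 is a pseudokinase, a kinase-like protein without catalytic activity, that works with the intracellular immune receptor ZAR1, a member of the NLR class that detects pathogen effectors. Activation of some NLRs leads through the EDS1 and PAD4 proteins and their helper receptors to the synthesis of salicylic acid and N-hydroxypipecolic acid. These signals switch on defence genes. Whether ZAR1 uses this route was not tested here. In Arabidopsis, warmth is known to weaken salicylic acid immunity and to promote stem and petiole growth through the PIF4 transcription factor.

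The 4 zed1-D libraries held 5 M and 11.13 M counted reads at 0 h and 5.26 M and 10.61 M at 3 h, in the order replicate 1 and replicate 2, and the second replicate of every group in the series was the deeper. Depth and replicate number therefore cannot be told apart, and a term for the replicate number was part of the model. Levels are CPM, the counts scaled to a common library total, with TMM scaling, a correction for library composition. Changes are log2 fold changes of 3 h against 0 h. The value after ± is a standard error worked back from the fold change and the F statistic of the test. FDR is the Benjamini-Hochberg adjusted p of edgeR's quasi-likelihood test over all 19312 genes, with a gene called under 0.05. ZED1 itself stood at 4.39 and 13.9 CPM at 0 h and at 4.39 and 10.7 CPM at 3 h. The groups overlapped and ZED1 was not called (log2 -0.31 ± 0.20, FDR 0.27). A gene-level count does not separate the mutant allele from the normal one, so it is no check of the genotype. Floral and leaf markers were present in all 4 libraries, with a summed level of 191 to 252 CPM for 14 meristem and floral identity genes and of 51158 to 77746 CPM for 22 leaf photosynthesis genes. In bulk tissue, fewer cells of a type and less RNA per cell cannot be told apart.

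Within 3 h, 4608 of the 19312 genes were called in zed1-D, 23.9% of all tested. Of these, 2473 were higher (12.8%) and 2135 lower (11.1%). These are the shares beside which the list counts below are to be read. The larger changes leaned upward: 645 genes rose by a log2 of at least 1 (3.34%) and 195 fell by as much (1.01%), 143 against 27 moved by at least 2, and 35 against 3 by at least 3. Genes that rose by at least 1 took 0.645% and 0.681% of all reads at 0 h and 1.71% and 1.8% at 3 h. Genes that fell by as much went from 1.42% and 1.21% to 0.495% and 0.416%. These shares are given as a description, since the genes were picked by the same change. Over all genes tested, the libraries of a time did not overlap with those of the other for 38.7%, and 2060 of the higher and 1510 of the lower genes were among these. Without the replicate term 525 genes were called (2.72%), 390 higher and 135 lower, and each of these 525 was also called with it. With the term, 2193 genes were called when the second 0 h library was left out and 2411 when the second 3 h library was. Where a gene named below lost its zed1-D call without the term, the FDR without it is given as unblocked.

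The wild type made the same move with 3912 genes called (20.3%), 1806 higher (9.35%) and 2106 lower (10.9%). Of the genes higher in zed1-D, 953 were also higher in WT, which is 38.5% of the zed1-D list and 52.8% of the WT list. Of those lower in zed1-D, 1080 were also lower in WT, or 50.6% and 51.3% of the lists. A further 261 genes were higher in zed1-D and lower in WT, and 15 were lower in zed1-D and higher in WT. A test of the difference between the changes, which share no library, called 1093 genes (5.66%): in 832 the zed1-D change lay above that of WT (4.31%) and in 261 below it (1.35%). All 276 genes with opposite calls passed this test. The test is built from the changes that picked these genes, so their passing is no separate support. Unblocked, 343 genes were called in WT and 205 for the difference, the latter including 138 of the 276. Leaving out the second library of a group took the WT count to 2194 (0 h) or 1922 (3 h), and that of the difference to 710 and 686 (zed1-D at 0 h and 3 h) or 665 and 638 (WT).

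**Figure D1:**
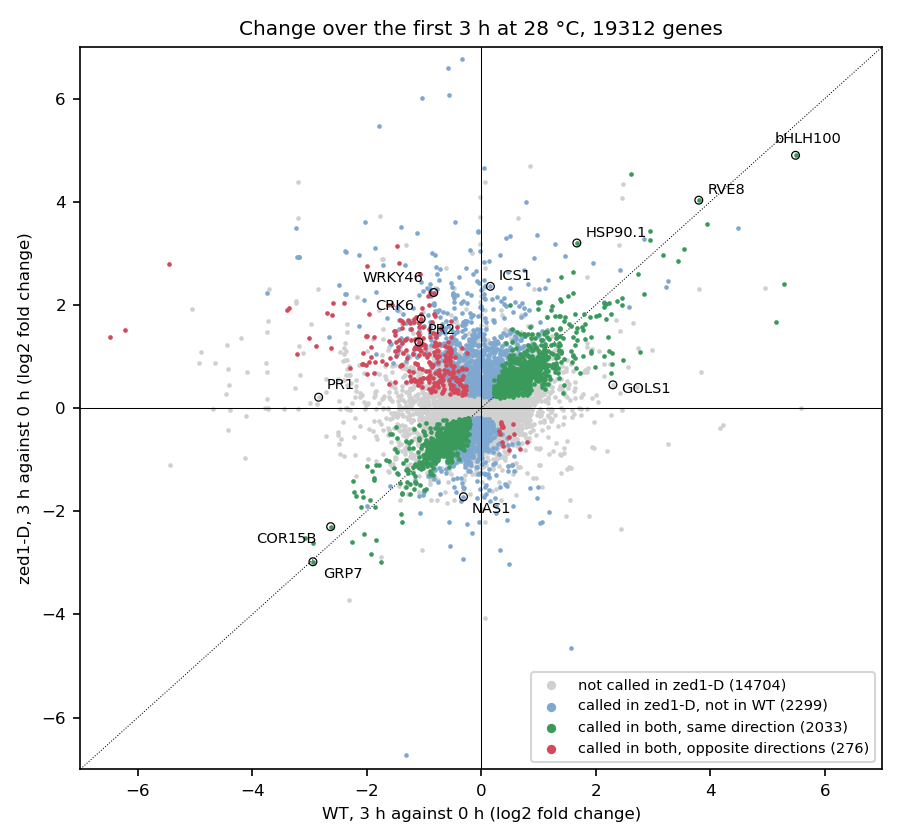
Log2 fold change from 0 h to 3 h in WT (horizontal axis) against zed1-D (vertical axis), 1 point per gene tested, with the dotted line marking equal change and colours giving the calls in each genotype. GRP7 and RVE8 lie near the line, whereas PR2, CRK6 and WRKY46 lie in the upper left, higher in zed1-D and lower in WT. Genes with no read in either library of a time have fold changes that depend on the model's prior count.

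In the list for the synthesis, action and removal of salicylic acid and N-hydroxypipecolic acid, most mRNAs rose. The levels of the signals themselves are not in these data. Of 22 genes tested in this list, 19 were higher and 0 lower, with a median log2 fold change of 1.10 beside 0.01 over all genes. In WT, 0 of the 22 were higher and 13 lower, and the median was -0.51. The difference between genotypes was called upward for 20 of the 22. With no replicate term 10 were called in zed1-D and 10 for the difference. ICS1, the isochorismate synthase that makes the precursor of most pathogen-induced salicylic acid, stood at 33.7 and 42.2 CPM at 0 h and at 171 and 218 CPM at 3 h (log2 2.36 ± 0.09, FDR 3.5e-21). In WT it stood at 22.6 and 27.9 CPM at 0 h and at 23 and 32.7 CPM at 3 h, where the groups overlapped. PBS3, which joins isochorismate to glutamate in the next step, went from 28 and 29.6 CPM to 98.7 and 101 CPM (1.79 ± 0.11, FDR 6.6e-15). In WT, PBS3 fell from 15.7 and 16.1 CPM to 7.12 and 10.1 CPM (-0.81, FDR 0.00062, unblocked 0.076).

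The mRNAs of enzymes that use up these signals rose too. UGT76B1, a glucosyltransferase acting on salicylic acid and N-hydroxypipecolic acid, rose from 18 and 16.2 CPM to 82.1 and 85.5 CPM (2.32 ± 0.11, FDR 6.8e-18). DLO1, which hydroxylates salicylic acid, rose from 26.5 and 16.3 CPM to 124 and 72.2 CPM (2.18 ± 0.10, FDR 5.1e-18, unblocked 0.054). For both genes each 3 h library lay above each 0 h library, which the rule for the 12 largest rises required of UGT76B1. In WT, DLO1 fell by 0.93 on the log2 scale (FDR 7.7e-05, unblocked 0.63) and UGT76B1 was not called (0.50, FDR 0.1). Other members, chosen here after their values were seen, include the upstream regulators and the branch to N-hydroxypipecolic acid. PAD4, a lipase-like partner of EDS1, went from 41.2 and 42.3 CPM to 94.3 and 106 CPM (1.28 ± 0.09, FDR 2.5e-13). SARD1, a transcription factor that activates ICS1, went from 28.2 and 34.3 CPM to 75.8 and 87.7 CPM (1.38 ± 0.10, FDR 4e-13). FMO1, the enzyme that makes N-hydroxypipecolic acid, went from 4.6 and 6.88 CPM to 13.9 and 14.7 CPM (1.24 ± 0.17, FDR 5.5e-07). In each of these genes the times did not overlap. NPR1, a salicylic acid receptor, was not called (0.22 ± 0.10, FDR 0.12).

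Of 25 immune receptors and ZED1-type kinases tested, 17 were higher and 0 lower, with a median of 0.47, and the difference from WT was called upward for 12. Without the replicate term 6 were called in zed1-D and 2 for the difference. The helper receptors of the ADR1 family, which act with EDS1 and PAD4, were among those called. ADR1-L1 went from 70.6 and 61.2 CPM to 117 and 105 CPM (0.76 ± 0.08, FDR 5.6e-09). ADR1-L2 went from 42.8 and 41.6 CPM to 69.1 and 68.8 CPM (0.71 ± 0.10, FDR 1.1e-06), and ADR1 from 17.3 and 15.5 CPM to 29.8 and 29.3 CPM (0.87 ± 0.13, FDR 2.9e-06). All 3 helper genes were higher at 3 h in both libraries, and their difference from the WT change was called (FDR 8.2e-08, 2.6e-07 and 0.0024, and unblocked 0.084, 0.024 and 0.11). ZAR1, the receptor that ZED1 partners, rose from 138 and 158 CPM to 190 and 221 CPM (0.47 ± 0.09, FDR 0.00022, unblocked 0.25), and fell in WT from 141 and 166 CPM to 111 and 128 CPM (-0.37, FDR 0.0058, unblocked 0.48). RPP13, a sensor receptor for a downy mildew effector, rose from 39.9 and 58.5 CPM to 66.6 and 103 CPM (0.78 ± 0.11, FDR 5.4e-07, unblocked 0.35). SNC1, a receptor known for temperature-dependent autoimmunity, went from 136 and 141 CPM to 176 and 182 CPM (0.37 ± 0.08, FDR 0.00089, unblocked 0.25), and its call ended without the second 0 h library (0.33, FDR 0.052).

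Cysteine-rich receptor-like kinases (CRKs), membrane kinases that many pathogen and salicylic acid treatments induce, had a median of 1.56. Of 11 tested, 9 rose and 0 fell in zed1-D, while 0 rose and 9 fell in WT, where the median was -1.01. The difference between genotypes was called upward for all 11, and for 8 without the replicate term, where 7 were called in zed1-D and 3 in WT. CRK6 stood at 39.1 and 30.1 CPM at 0 h and at 135 and 96.4 CPM at 3 h (1.73 ± 0.09, FDR 1.5e-16), against 37.1 and 25.6 CPM and then 15.6 and 13.5 CPM in WT (-1.05, FDR 3.5e-08, unblocked 0.089). CRK45 rose from 21.7 and 23.6 CPM to 48.9 and 61.6 CPM (1.31 ± 0.11, FDR 7.1e-12), and fell in WT from 14 and 18.3 CPM to 5.05 and 6.8 CPM (-1.43, FDR 1.7e-08). In both genes every 3 h library lay above every 0 h library in zed1-D and below every 0 h library in WT. CRK14 (1.56 ± 0.12, FDR 1.4e-12) and CRK36 (1.88 ± 0.18, FDR 2e-10) rose by similar amounts. CRK genes lie in clusters of related copies, and unique mapping drops reads that copies share, so their levels carry that uncertainty.

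Genes of pattern-triggered signalling, the response to microbial molecules at the cell surface, were called higher for 10 of 22 and lower for 0, with a median of 0.35. In WT, 2 were higher and 10 lower. In zed1-D 6 were called without the second 0 h library and 2 without the replicate term. SOBIR1, the adaptor kinase of receptor-like proteins, rose from 166 and 137 CPM to 347 and 279 CPM (1.04 ± 0.07, FDR 3e-13) and fell in WT from 170 and 146 CPM to 93 and 75.7 CPM (-0.91, FDR 5.5e-11, unblocked 0.058). LYK5, a chitin receptor kinase, rose from 30.1 and 25.4 CPM to 56.3 and 57.6 CPM (1.07 ± 0.11, FDR 2.1e-09). WAK1, a wall-associated kinase (0.56 ± 0.07, FDR 2.1e-07, unblocked 0.17), and MPK3, a mitogen-activated protein kinase of immune signalling (0.55 ± 0.08, FDR 8.6e-07, unblocked 0.3), rose by less. Outside this list, IOS1, a leucine-rich repeat receptor kinase named for the size of its rise, went from 3.34 and 3.05 CPM to 19.1 and 13.8 CPM (2.30 ± 0.21, FDR 1.2e-10). Its WT levels stayed at 1.12 CPM or less.

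WRKY transcription factors, a family that binds the W-box sequence in defence promoters, were called higher for 15 of 30 and lower for 0, with a median of 0.66 against -0.57 in WT. Of the 30, 14 differed upward from the WT change and without the replicate term 7 differed and 8 were called in zed1-D. WRKY46 stood at 10.2 and 11.9 CPM at 0 h and at 48.7 and 56.2 CPM at 3 h (2.24 ± 0.14, FDR 5e-15), with WT falling from 7.83 and 11.1 CPM to 5.28 and 5.78 CPM (-0.83, FDR 0.0035, unblocked 0.26). WRKY53, a regulator of leaf senescence and defence, rose from 15.5 and 16.8 CPM to 43.3 and 45.8 CPM (1.46 ± 0.12, FDR 1.2e-11). The related WRKY40 (1.94 ± 0.17, FDR 3e-11) and WRKY18 (1.30 ± 0.14, FDR 4.9e-09, unblocked 0.063) rose as well. WRKY18 stood at 12.3 and 17.6 CPM and then at 30.4 and 43.6 CPM.

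The secreted pathogenesis-related (PR) proteins include PR1, PR2 and PR5, classical outputs of salicylic acid signalling. The group was mixed at 3 h, with 2 of 5 higher and 0 lower, and 1 called without the replicate term. PR2, a glucanase of the fungal wall polymer, rose from 169 and 156 CPM to 398 and 389 CPM (1.28 ± 0.08, FDR 3.2e-15), while in WT it fell from 129 and 118 CPM to 54.2 and 59.4 CPM (-1.09, FDR 4.7e-12). PR5, a thaumatin-like protein, went from 302 and 138 CPM to 416 and 204 CPM (0.51 ± 0.09, FDR 2.1e-05, unblocked 0.91). Its times overlap unless the libraries are paired by number. PR1 stood at 111 and 176 CPM at 0 h and at 135 and 196 CPM at 3 h, and missed the threshold (0.21 ± 0.08, FDR 0.05). In WT, PR1 fell from 58.9 and 91.8 CPM to 7.35 and 13.1 CPM (-2.84, FDR 5.2e-20), so that the difference between the changes was 3.05 ± 0.14 (FDR 2.2e-17). PR3, a chitinase (-0.96 ± 0.38, FDR 0.065), and PR4, a hevein-like protein (0.02 ± 0.14, FDR 0.95), were not called.

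**Figure D2:**
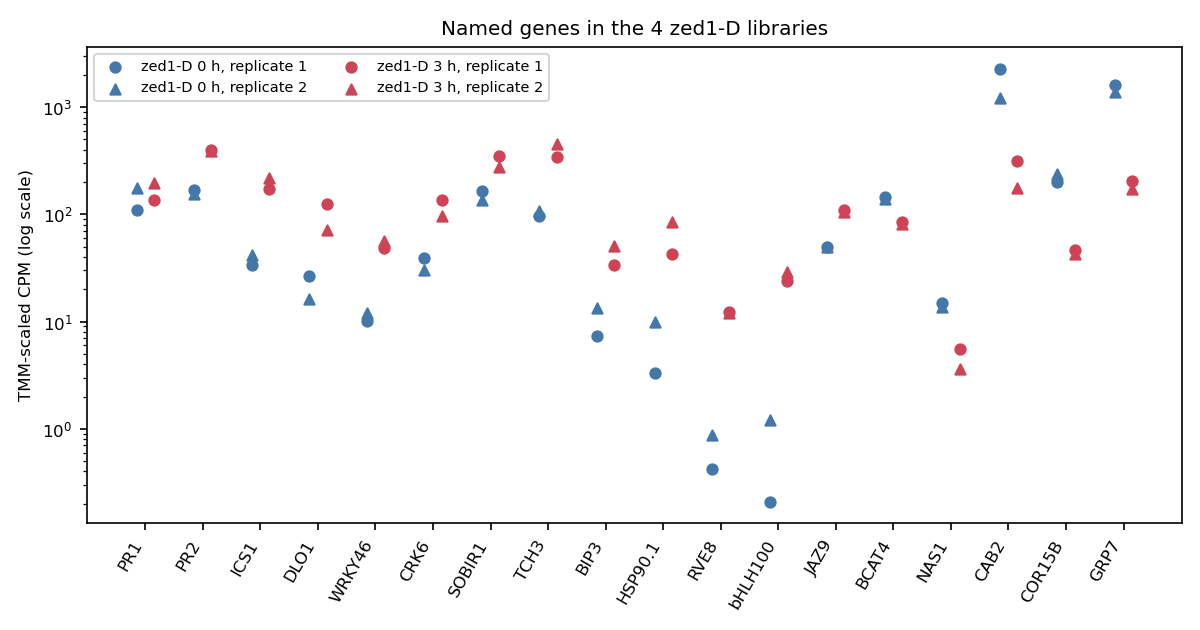
TMM-scaled CPM on a log axis of 18 named genes in the 4 zed1-D libraries, with 0 h in blue, 3 h in red, circles for replicate 1 and triangles for replicate 2. The times separate for the genes shown other than PR1, whose points overlap between 111 and 196 CPM.

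As examples of genes that moved in opposite directions, the 250 bases before the annotated start of 2 genes that rose in zed1-D and fell in WT are printed, CRK6 and XBAT34. XBAT34 stood at 42.4 and 55.1 CPM and then at 123 and 139 CPM in zed1-D (1.41 ± 0.09, FDR 6.1e-14), and at 38.6 and 41.5 CPM and then 20.9 and 18.3 CPM in WT (-1.08, FDR 1.8e-08). The sequences are from the RefSeq reference TAIR10.1, read in the direction of the gene, at chr4:12121119-12121368 on the plus strand for CRK6 and chr4:8273904-8274153 on the minus strand for XBAT34. Capitals mark the W-box core TTGAC or, on the other strand, GTCAA, of which each window holds 2.
CRK6: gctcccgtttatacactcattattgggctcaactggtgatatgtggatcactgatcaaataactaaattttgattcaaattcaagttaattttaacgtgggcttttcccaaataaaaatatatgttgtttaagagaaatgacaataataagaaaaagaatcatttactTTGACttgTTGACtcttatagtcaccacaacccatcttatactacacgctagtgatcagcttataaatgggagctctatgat
XBAT34: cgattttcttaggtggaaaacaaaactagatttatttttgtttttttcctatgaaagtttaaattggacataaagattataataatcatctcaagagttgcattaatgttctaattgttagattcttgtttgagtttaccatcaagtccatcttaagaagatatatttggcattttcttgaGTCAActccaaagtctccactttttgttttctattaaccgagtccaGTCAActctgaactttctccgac
The core was searched on both strands in the same window of 18941 tested genes, and 44.6% held at least 1 match and 14.2% at least 2. Among the 256 genes with a window that were higher in zed1-D and lower in WT, the shares were 64.5% and 30.1%. Among the 627 that rose in zed1-D by a log2 of at least 1 they were 57.1% and 27%, and among the 946 higher in both genotypes 45.3% and 14.3%. These shares are descriptions of letters, not of bound sites.

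Endoplasmic reticulum chaperones, which fold secreted and membrane proteins, were higher for 10 of 14 and lower for 0, with a median of 0.44. In WT, 1 was higher and 5 lower, and 9 of the 14 differed upward between genotypes. BIP3, a stress-inducible Hsp70 of this compartment, rose from 7.32 and 13.4 CPM to 34 and 50.8 CPM (2.00 ± 0.17, FDR 1.2e-11, unblocked 0.053). CRT3, a calreticulin needed for the folding of some receptor kinases, rose from 144 and 193 CPM to 299 and 404 CPM (1.06 ± 0.08, FDR 8.2e-13, unblocked 0.083). SHD, the Hsp90 of this compartment, rose from 787 and 780 CPM to 1211 and 1364 CPM (0.72 ± 0.10, FDR 1.1e-06, unblocked 0.073), and BIP2 by a log2 of 0.54 ± 0.07 (FDR 7.3e-07, unblocked 0.21). Each of these 4 genes had both 3 h libraries above both 0 h libraries. Unblocked, 0 of the 14 were called in zed1-D or for the difference, with fold changes as above.

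Heat shock factors and chaperones, which protect and refold proteins in warmth, were higher for 10 of 23 and lower for 0. ATHSP22.0 had no read in the zed1-D libraries, and the median over the other 22 was 0.83. HSP90.1, an inducible cytosolic Hsp90, was the largest of the 12 named rises, from 3.34 and 10 CPM to 42.6 and 85.7 CPM (3.20 ± 0.15, FDR 6.8e-18). In WT it went from 3.54 and 6.18 CPM to 8.27 and 21.5 CPM (1.67, FDR 7.4e-08, unblocked 0.38), a smaller change by 1.53 ± 0.28 (FDR 0.00019, unblocked 1.0). HSP70 rose from 4.6 and 4.44 CPM to 15.7 and 22 CPM (2.13 ± 0.19, FDR 4.4e-11), and in WT by 2.46, and the difference was not called (-0.33 ± 0.36, FDR 0.77). HSP101, a disaggregase required for heat tolerance, rose from 9.2 and 11.8 CPM to 25.2 and 26.3 CPM (1.26 ± 0.15, FDR 3e-08). ROF2, a co-chaperone of Hsp90, rose by 1.44 ± 0.15 (FDR 4.9e-09, unblocked 0.25). Over the list, 7 members were higher in WT, and 2 differed upward between genotypes. With no replicate term 3 of the 10 were called and 0 differed, and without the second 3 h library 6 were called.

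Rapid calcium-responsive genes and senescence markers also held calls. Of 5 touch and calcium genes, 3 were higher and 1 lower, and without the replicate term 1 was higher and 0 lower. TCH3, a calmodulin-like protein, rose from 95.7 and 107 CPM to 343 and 450 CPM (1.97 ± 0.10, FDR 2.7e-17) and was level in WT, at 67.7 and 91.5 CPM and then 62.9 and 93.9 CPM (-0.01, FDR 0.95). CML37, another calmodulin-like protein, rose from 2.3 and 5.66 CPM to 6.11 and 16.6 CPM (1.53 ± 0.19, FDR 1.1e-07, unblocked 0.48). CML38 was also called (1.03 ± 0.36, FDR 0.032, unblocked 0.69), but leaving out any of the 4 libraries ended the call, with the highest FDR, 0.13, without the first 0 h library. TCH4, a cell wall xyloglucan enzyme, fell from 15 and 15.9 CPM to 10.5 and 9.71 CPM (-0.64 ± 0.15, FDR 0.0017, unblocked 0.1), a call that ended without the second 3 h library (-0.46, FDR 0.18). TCH2 was not called (0.06 ± 0.12, FDR 0.78). Of 8 senescence genes, 3 were higher and 0 lower, and the same number were lower in WT. SAG21, a small mitochondrial stress protein, rose from 40.3 and 44.4 CPM to 117 and 97.3 CPM (1.30 ± 0.10, FDR 2.8e-12), and SAG13 from 8.99 and 10.3 CPM to 24.6 and 25.6 CPM (1.35 ± 0.15, FDR 1.6e-08). SAG12, the protease used as a late senescence marker, was near its detection limit, at 0 and 0.174 CPM and then 0.954 and 1.8 CPM. Its call (FDR 0.001, unblocked 0.12) ended when either of 2 libraries was left out, 1 of them the second 0 h library.

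Of 7 camalexin genes, 3 were higher and 0 lower, with 1 called without the replicate term. PAD3, which makes this indole antimicrobial in the last step, rose from 23.6 and 26.8 CPM to 48.9 and 60.5 CPM (1.12 ± 0.11, FDR 6e-10) and fell in WT from 9.14 and 9.32 CPM to 3.44 and 3.36 CPM (-1.46, FDR 4.4e-06). CYP71A12, an earlier enzyme, rose from 6.06 and 8.63 CPM to 16.6 and 18.5 CPM (1.22 ± 0.17, FDR 6.5e-07, unblocked 0.1). CYP79B3, which starts the route shared with indole glucosinolates, rose by 0.63 ± 0.10 (FDR 4.7e-06, unblocked 0.069), and by more in WT (1.19), with a difference of -0.56 ± 0.14 (FDR 0.0074, unblocked 0.64). CYP79B2 was not called (0.24 ± 0.09, FDR 0.054).

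**Figure D3:**
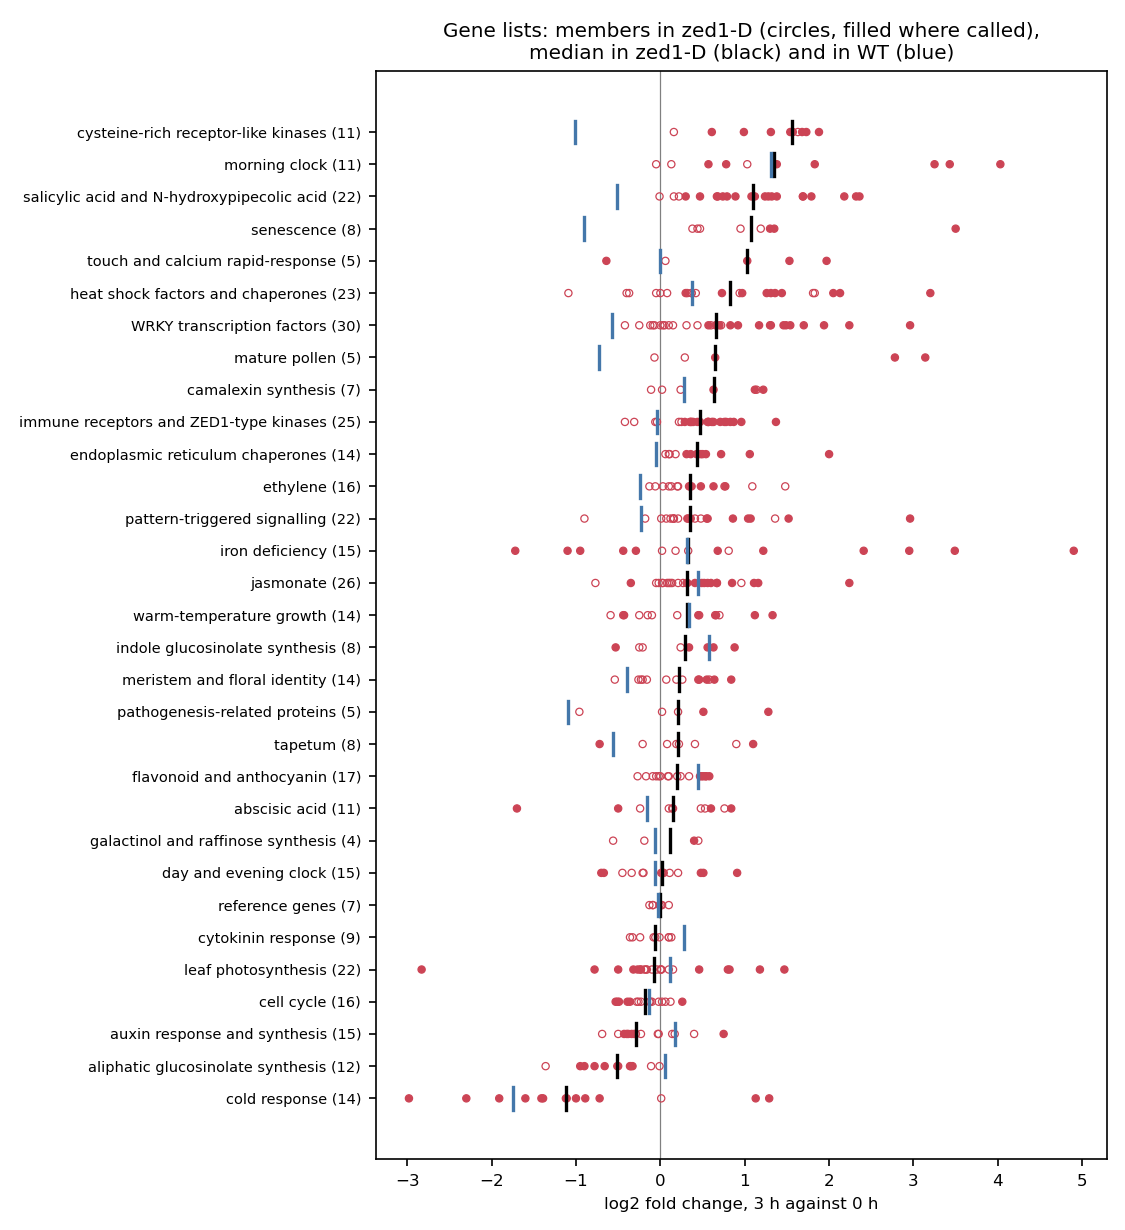
Log2 fold change from 0 h to 3 h in zed1-D of the tested members of 31 gene lists (circles, filled where called), with the list medians in zed1-D (black bars) and WT (blue bars) over members with reads in both groups; the number tested follows each name. Cysteine-rich receptor-like kinases have a median of 1.56 in zed1-D and -1.01 in WT, whereas the morning clock medians lie side by side at 1.35 and 1.31.

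Jasmonate genes, of the hormone pathway of wounding and insect defence, were higher for 12 of 26 and lower for 1, with a median of 0.32 in zed1-D and 0.45 in WT. In zed1-D 3 were higher and 0 lower without the replicate term. The difference between genotypes was called upward for 2 and downward for 8, and for 2 in all without the replicate term. JAZ9, a repressor that the hormone itself induces, rose from 49.5 and 50 CPM to 111 and 105 CPM (1.11 ± 0.08, FDR 1.6e-12). In WT, JAZ9 rose further, from 38.4 and 39.2 CPM to 150 and 146 CPM, a difference of -0.81 ± 0.12 (FDR 9.6e-06). THI2.1, an antimicrobial thionin induced by jasmonate, rose from 2.93 and 2.18 CPM to 13.4 and 10.5 CPM (2.24 ± 0.22, FDR 4.5e-10) and was not called in WT (-0.25, FDR 0.55). The synthesis enzymes AOC3 (1.16 ± 0.13, FDR 2e-08) and LOX2 (0.52 ± 0.08, FDR 1.9e-06, unblocked 0.68) rose in both genotypes (in WT unblocked 0.11 and 0.77), and a difference between them was not called (FDR 0.17 and 0.89). Allene oxide cyclases are near-identical copies, and their counts are uncertain.

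Among 16 ethylene genes, 6 were higher and 0 lower, with a median of 0.35. Without the replicate term 0 were called, and without the second 0 h library 2 were. EFE, an enzyme of the last step of ethylene synthesis, stood at 171 and 206 CPM and then at 218 and 261 CPM (0.34 ± 0.08, FDR 0.00097, unblocked 0.35). Leaving out 1 library ended its call for 2 of the 4, with the highest FDR, 0.067, without the second 3 h library (0.28). ERF104, a response factor (0.77 ± 0.19, FDR 0.0028, unblocked 0.14), lost its call without the second 0 h library (0.50, FDR 0.29). EBF1, an F-box repressor of ethylene signalling, rose by 0.37 ± 0.09 (FDR 0.0015, unblocked 0.87). Abscisic acid genes were called higher for 2 of 11 and lower for 2, beside 12.8% and 11.1% over all genes. Counts this small do not set the list apart from all genes tested. Without the replicate term 1 was higher and 0 lower, and the lower count also fell without the second library of either time. RD20, a caleosin, rose from 33 and 40.2 CPM to 67.2 and 65.9 CPM (0.84 ± 0.10, FDR 9e-08), and RAB18, a dehydrin, fell from 9.2 and 16.6 CPM to 3.05 and 4.95 CPM (-1.70 ± 0.22, FDR 1.5e-07, unblocked 0.25). Of 9 cytokinin response genes, 0 were called by edgeR, 0 by DESeq2 and 0 at an unadjusted p under 0.05, and their fold changes ran from -0.36 to 0.13.

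In the cold response list 11 of 14 were lower and 2 higher (5 and 0 without the replicate term), with a median of -1.12, beside 11 lower and 0 higher in WT with a median of -1.75. GRP7, an RNA-binding protein of the clock and of cold responses, was the largest of the 12 named falls, from 1593 and 1374 CPM to 205 and 173 CPM (-2.98 ± 0.08, FDR 6.7e-25). In WT it went from 1550 and 1304 CPM to 206 and 167 CPM, and the changes did not differ beyond their error (-0.04 ± 0.11, FDR 0.94). Its relative GRP8 fell from 97.8 and 125 CPM to 31.9 and 29 CPM (-1.91 ± 0.11, FDR 2.9e-15). COR15B and COR15A, chloroplast proteins that protect membranes in freezing, fell by 2.30 and 1.39 on the log2 scale. COR15B stood at 199 and 238 CPM at 0 h and 46.8 and 43.1 CPM at 3 h (FDR 3.2e-19), and COR15A at 315 and 385 CPM and then 127 and 140 CPM (FDR 6.4e-16). COR6.6, another cold-induced protein, fell from 407 and 352 CPM to 140 and 112 CPM (-1.60 ± 0.09, FDR 4.3e-16). The falls of COR15A and COR6.6 were smaller in zed1-D than in WT, by 0.48 ± 0.11 (FDR 0.0039) and 0.49 ± 0.12 (FDR 0.0099), both unblocked 1.0. These cold genes have near-identical copies beside them, and their split between copies is uncertain. The 2 members that rose, ZAT10 (1.13 ± 0.19, FDR 1.6e-05, unblocked 0.4) and ZAT12 (1.29 ± 0.28, FDR 0.00055, unblocked 0.25), are zinc finger factors that many stresses induce and were named after their values were seen. Without the second library of either time, 1 of the 2 was called.

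The windows before GRP7 and LTI78 are printed because their motifs are textbook elements of the groups that fell. LTI78, a cold-induced hydrophilic protein chosen after its values were seen, went from 71.9 and 116 CPM to 28.6 and 42.3 CPM (-1.41 ± 0.10, FDR 1.1e-13, unblocked 0.077). In TAIR10.1 the windows lie at chr2:9266558-9266807 on the minus strand and chr5:21240467-21240716 on the plus strand. Capitals mark 3 evening elements, AAAATATCT or AGATATTTT on the other strand, before GRP7 and 3 C-repeat cores, CCGAC, before LTI78.
GRP7: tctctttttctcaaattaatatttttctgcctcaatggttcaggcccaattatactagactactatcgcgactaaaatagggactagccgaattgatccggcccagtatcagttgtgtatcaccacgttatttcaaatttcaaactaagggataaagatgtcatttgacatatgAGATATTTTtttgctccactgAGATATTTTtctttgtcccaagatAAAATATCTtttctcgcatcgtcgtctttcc
LTI78: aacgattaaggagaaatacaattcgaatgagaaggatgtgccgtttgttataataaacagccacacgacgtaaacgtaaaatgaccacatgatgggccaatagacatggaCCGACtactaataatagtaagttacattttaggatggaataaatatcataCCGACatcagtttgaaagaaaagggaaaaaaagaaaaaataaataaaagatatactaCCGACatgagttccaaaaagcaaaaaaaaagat
The evening element occurred in 2.55% of all 18941 windows, in 9.47% of the 190 belonging to genes that fell in zed1-D by a log2 of at least 1, and in 6.22% of the 1077 of genes lower in both genotypes. The C-repeat core, counted on both strands (GTCGG on the other), occurred in 13%, 21.1% and 12.7% of these. The G-box CACGTG, bound by PIF and clock factors among others, occurred in 7.34% of all windows, in 14.1% of those of genes higher in both genotypes and in 3.52% of those of genes higher in zed1-D and lower in WT. A heat shock element of alternating GAA and TTC units occurred in 0.412% of all windows and in 0.478% of those that rose by at least 1.

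**Figure D4:**
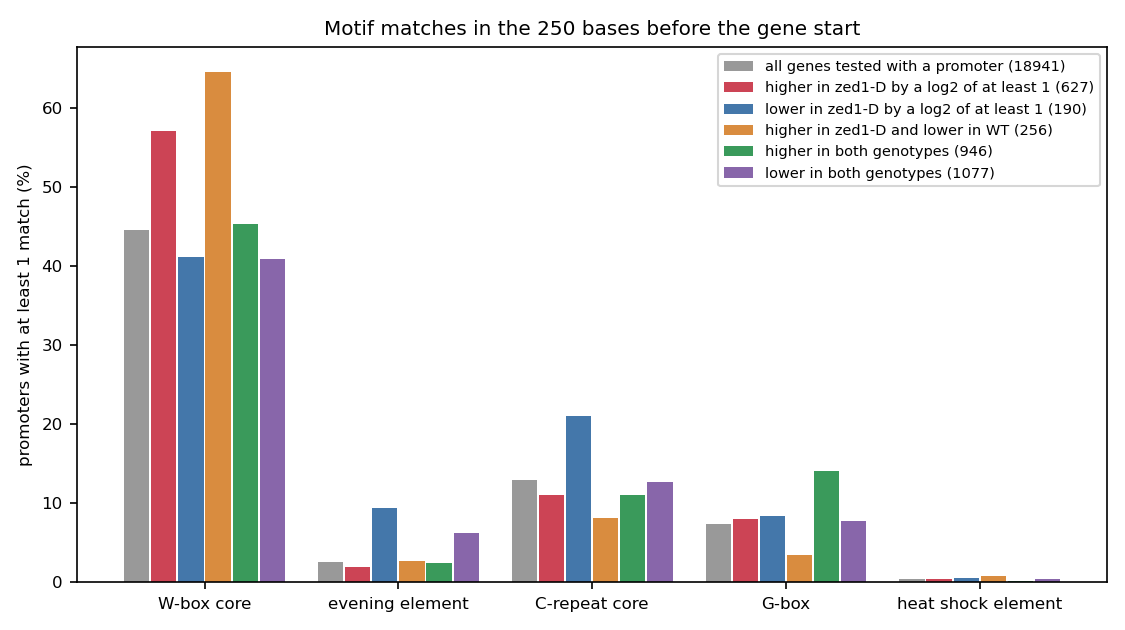
Percent of 250-base windows before the gene start with at least 1 match to each of 5 motifs, for all tested genes and for 5 sets defined by their calls, with the number of windows in brackets. W-box cores reach 64.5% in genes higher in zed1-D and lower in WT against 44.6% over all genes, and evening elements 9.47% in genes that fell against 2.55%.

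Of 11 morning clock genes, 8 were higher and 0 lower, with a median of 1.35 in zed1-D and 1.31 in WT, and 0 of the 11 differed between genotypes at an FDR under 0.05. RVE8, an activator that acts in the morning and midday, went from 0.418 and 0.871 CPM to 12.4 and 12.1 CPM (4.03 ± 0.33, FDR 9.7e-12), and in WT from 1.86 and 0.57 CPM to 14.2 and 14.4 CPM (3.80). LHY, a dawn repressor, went from 0.209 and 0.61 CPM to 4.58 and 5.94 CPM (3.43 ± 0.41, FDR 3.7e-08). LNK1, a coactivator (1.35 ± 0.15, FDR 2.2e-08), and RVE4 (0.78 ± 0.11, FDR 7.6e-07) rose as well. Of 15 day and evening clock genes, 3 were higher and 2 lower (20% and 13.3%, beside 12.8% and 11.1% over all genes), with a median of 0.02. Without the replicate term 0 were called, and 1 was higher without the second 0 h library and 1 lower without the second 3 h library. LUX, of the evening complex, rose from 23.2 and 53 CPM to 56.3 and 87.7 CPM (0.91 ± 0.10, FDR 2.5e-08, unblocked 0.54). FKF1, a blue-light receptor of flowering, fell from 19.6 and 18.5 CPM to 11.5 and 11.8 CPM (-0.70 ± 0.16, FDR 0.0013, unblocked 0.091). ELF4 (-0.67 ± 0.13, FDR 0.00021, unblocked 0.54) lost its call without the second 3 h library (-0.55, FDR 0.072), and PRR3 (0.51 ± 0.12, FDR 0.001, unblocked 0.74) without the second 0 h library (0.38, FDR 0.16). Whether these clock genes bear on the changes of other genes was not tested.

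Metal and light-harvesting genes were split in direction. Of 15 iron deficiency genes, 6 were higher and 5 lower, and 8 of these calls held without the replicate term. bHLH100, a transcription factor induced by iron shortage, rose from 0.209 and 1.22 CPM to 23.9 and 29 CPM (4.90 ± 0.25, FDR 4.3e-17), and in WT from 0.373 and 0.0951 CPM to 6.2 and 10.7 CPM (5.49), with no call of a difference (FDR 0.83). BTS, a ubiquitin ligase that restrains iron uptake, rose from 98.4 and 80.8 CPM to 230 and 188 CPM (1.22 ± 0.09, FDR 1.3e-12). FER1, the iron store ferritin, fell from 40.8 and 39.4 CPM to 19.7 and 18 CPM (-1.10 ± 0.12, FDR 7.5e-09), which was less than in WT by 0.67 ± 0.17 (FDR 0.0079, unblocked 0.38). NAS1, a synthase of the metal carrier nicotianamine, fell from 14.8 and 13.6 CPM to 5.54 and 3.6 CPM (-1.72 ± 0.20, FDR 3.1e-08) and was not called in WT (-0.31, FDR 0.28), and the difference was called (FDR 0.00092, unblocked 0.33). Of 22 leaf photosynthesis genes, 5 were higher and 7 lower, with a median of -0.07. Unblocked, 1 was higher and 1 lower, and 3 were lower without the second 0 h or the first 3 h library. CAB2, an antenna protein of photosystem II with near-identical copies, fell from 2287 and 1222 CPM to 315 and 176 CPM (-2.83 ± 0.09, FDR 2e-23). LHCB2.1, another antenna protein, rose from 129 and 47 CPM to 332 and 140 CPM (1.47 ± 0.10, FDR 9.3e-14, unblocked 0.58). RCA, which activates Rubisco (0.82 ± 0.08, FDR 3.3e-10, unblocked 0.44), and RBCS2B, a Rubisco small subunit with close copies (0.80 ± 0.08, FDR 3.3e-10), rose.

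Aliphatic glucosinolate synthesis, the making of methionine-derived mustard oil precursors, was lower for most genes tested. Of 12 genes 0 were higher and 9 lower, with a median of -0.51 in zed1-D and 0.05 in WT. The difference between genotypes was called downward for 7, and without the replicate term 3 of the 9 were called and 1 differed. MAM1, which elongates the methionine chain, fell from 312 and 277 CPM to 164 and 141 CPM (-0.95 ± 0.08, FDR 5.5e-12). BCAT4, which starts the pathway, fell from 145 and 139 CPM to 84.8 and 81.1 CPM (-0.78 ± 0.08, FDR 1.1e-09), while in WT it stood at 119 and 119 CPM and then 126 and 116 CPM (0.01). CYP79F1 (-0.90 ± 0.08, FDR 1.9e-11) and CYP83A1 (-0.51 ± 0.08, FDR 5.7e-06, unblocked 0.19), oxidases of the core pathway, fell as well. Of 8 indole glucosinolate genes, 4 were higher and 1 lower (1 and 0 without the replicate term), including MYB51, their transcriptional activator (0.88 ± 0.18, FDR 0.00023, unblocked 0.18), SOT16, a sulfotransferase (0.56 ± 0.09, FDR 4.4e-06), and SUR1, a lyase shared by both routes (-0.53 ± 0.08, FDR 3e-06, unblocked 0.21). Of 17 flavonoid genes 6 were higher and 0 lower, with 1 called without the replicate term and a median of 0.20 against 0.45 in WT. Those called include PAL2 (0.54 ± 0.08, FDR 6.9e-06), PAL1 (0.49 ± 0.08, FDR 7.3e-06, unblocked 0.066), TT4 (0.58 ± 0.08, FDR 9.3e-07, unblocked 0.79) and DFR (0.47 ± 0.09, FDR 9e-05, unblocked 0.11).

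Of 14 warm-temperature growth genes 4 were higher and 1 lower, with 0 called without the replicate term, and 0 differed between genotypes. Leaving out either 0 h library or the first 3 h library left 2 higher. PIF5, a phytochrome-interacting factor, rose from 14.2 and 12.9 CPM to 22 and 20.6 CPM (0.66 ± 0.13, FDR 0.00028, unblocked 0.063), and IAA19, an auxin-induced repressor, went from 0.418 and 2.61 CPM to 3.25 and 5.58 CPM (1.33 ± 0.30, FDR 0.00096, unblocked 0.46). PIF4, the factor most linked to warmth, was called lower, from 23.2 and 16.6 CPM to 13.6 and 14.3 CPM (-0.43 ± 0.15, FDR 0.028, unblocked 0.32). That call ended when either of 2 libraries was left out, 1 of them the first 3 h library (-0.31). FT, the flowering signal, had its call (1.12 ± 0.39, FDR 0.033, unblocked 0.5) ended by leaving out any of the 4 libraries, with the highest FDR, 0.22, without the second 3 h library, where its fold change was 1.24. Of 15 auxin genes 1 was higher and 5 lower, and the difference from WT was called downward for 4, with 0 of either without the replicate term. The lower count was 3 without the first library of either time, 0 without the second 0 h and 1 without the second 3 h library. The auxin exporter PIN3 fell from 117 and 107 CPM to 91.8 and 80.8 CPM (-0.38 ± 0.08, FDR 0.00058, unblocked 0.4), a call lost without the second 0 h library (-0.32, FDR 0.055). GH3.5 was called lower (-0.43, FDR 0.019, unblocked 0.8), and leaving out any of the 4 libraries ended the call. GH3.3 was called higher (0.75, FDR 0.0017, unblocked 0.56), until the second 0 h library was left out (0.59, FDR 0.12).

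Galactinol and raffinose synthesis, the making of protective sugars, had 4 of its 6 genes past the expression filter (GOLS3 and GOLS4 were not), of which 1 was higher and 0 lower, with 0 called without the replicate term. SIP2, a raffinose-cleaving enzyme, went from 68.6 and 47.7 CPM to 84.9 and 66.6 CPM (0.40 ± 0.09, FDR 0.00083, unblocked 0.64), and lost its call without the second 0 h library (0.31, FDR 0.091). Its times overlapped across replicates. GOLS1, a galactinol synthase, was not called at 6.27 and 7.58 CPM and then 9.54 and 9.89 CPM (0.45 ± 0.19, FDR 0.084). In WT, GOLS1 rose from 5.59 and 3.8 CPM to 20.9 and 22.4 CPM (2.30, FDR 5.7e-12), and the difference was called (-1.85 ± 0.27, FDR 7.4e-06). GOLS2 (-0.56 ± 0.48, FDR 0.43) and RS5, a raffinose synthase (-0.19 ± 0.17, FDR 0.47), were not called.

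Cell cycle and flower markers are set beside these results because the sampled tissue is mixed. Of 16 cell cycle genes 1 was higher and 5 lower, with a median of -0.18 against -0.14 in WT, 2 or 3 were lower when any 1 library was left out and 0 were called without the replicate term, and their summed level went from 815 and 764 CPM to 708 and 700 CPM. TSO2, a ribonucleotide reductase subunit, fell from 161 and 128 CPM to 114 and 89.7 CPM (-0.51 ± 0.08, FDR 1.1e-05, unblocked 0.51). CDKB2;2 (-0.53, FDR 0.0046, unblocked 0.37) lost its call without the first 3 h library (-0.42, FDR 0.079), CYCB1;1 (-0.39, FDR 0.027, unblocked 0.28) without any of the 4, and HIK, a kinesin of cell division (0.26, FDR 0.026, unblocked 0.55), without 3 of them. Of 14 meristem and floral identity genes 4 were higher and 0 lower, against 1 and 6 in WT, and their difference was called upward for 4, with 0 of either without the replicate term. The higher count was 2 without either 0 h library or the second 3 h library. AP3, a petal and stamen factor, went from 6.9 and 9.32 CPM to 10.3 and 14.7 CPM (0.64 ± 0.16, FDR 0.0036, unblocked 0.63), and lost its call without the second 0 h library (0.48, FDR 0.28). PI, its partner (0.84 ± 0.21, FDR 0.0022, unblocked 0.4), lost it without the first 3 h library (0.56, FDR 0.058), and FUL (0.46, FDR 0.0056, unblocked 0.4) without the first 0 h library (0.39, FDR 0.06) or the second 3 h library (0.51, FDR 0.056). SEP1 (0.55, FDR 0.041, unblocked 0.25) lost its call when any of the 4 libraries was left out, with values from 0.41 to 0.88. Of 5 mature pollen genes 3 were higher, from a summed level of 22.6 and 26.1 CPM at 0 h to 26.3 and 34.3 CPM at 3 h, with 0 called without the second 0 h library and 1 without the replicate term. In the tapetum list, of the anther layer that feeds pollen, 1 of 8 was higher and 1 lower (12.5% each, beside 12.8% and 11.1% over all genes). Without the replicate term 0 were called. The part of tissue makeup in the results above was not tested. Of 7 reference genes 0 were called by edgeR or DESeq2, 0 reached an unadjusted p under 0.05, and their median was -0.01.

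Beyond the lists, the rule for large changes named further genes. LHT7, of the amino acid transporter family, rose from 6.06 and 4.1 CPM to 30 and 27.8 CPM (2.59 ± 0.17, FDR 1.6e-14) and differed from WT by 3.66 ± 0.39 (FDR 8.9e-09). PUB54, a U-box protein, rose from 3.76 and 7.58 CPM to 23.5 and 33.5 CPM (2.25 ± 0.17, FDR 6.7e-13), and GRX480, a glutaredoxin that binds TGA factors, from 1.05 and 3.22 CPM to 7.44 and 17.8 CPM (2.54 ± 0.26, FDR 1.3e-09, unblocked 0.34). In these genes the lowest 3 h library lay above the highest 0 h library, which the rule that named them required. AT4G38560 (2.60 ± 0.16, FDR 1.3e-14), cPT4 (2.64 ± 0.25, FDR 2.4e-10, unblocked 0.09) and AT2G14247 (2.85 ± 0.27, FDR 3.7e-10) completed the 12, and the last of these also rose in WT (3.44, FDR 4e-08). Among the falls, PORA, a light-dependent enzyme of chlorophyll synthesis, went from 21.5 and 19.9 CPM to 3.44 and 3.6 CPM (-2.52 ± 0.21, FDR 1.5e-11). AT4G30650, of a low temperature and salt responsive family (-2.61 ± 0.10, FDR 3.5e-21), AT2G33830, of a dormancy and auxin associated family (-2.59 ± 0.11, FDR 2e-19), EMB2729, of the alpha amylase family (-1.73 ± 0.12, FDR 1.2e-13), and AT5G28919 (-1.66 ± 0.10, FDR 1.1e-14) fell in WT too, the last with an unblocked FDR of 0.1 there. AT2G38380, of the peroxidase family, fell from 8.36 and 6.62 CPM to 2.1 and 2.34 CPM (-1.67 ± 0.28, FDR 2.4e-05, unblocked 0.075) and was not called in WT (0.09, FDR 0.86).

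The smallest p-values for a difference between the genotypes' changes marked genes that fell in WT and did not in zed1-D. LURP1, a gene named for its late rise in downy mildew infection, stood at 332 and 657 CPM and then 296 and 564 CPM in zed1-D (-0.19 ± 0.08, FDR 0.076), against 405 and 923 CPM and then 83.8 and 204 CPM in WT (-2.20, FDR 2.2e-20, unblocked 0.15). The difference of LURP1 was 2.01 (FDR 5.2e-15, unblocked 0.87). PCR1, of the cadmium resistance family, rose from 128 and 136 CPM to 205 and 213 CPM (0.66 ± 0.09, FDR 2.3e-07) and fell in WT from 106 and 105 CPM to 27.3 and 25.6 CPM (FDR 1.3e-16). RLP34, a receptor-like protein, rose from 87.8 and 70.8 CPM to 210 and 169 CPM (1.25 ± 0.08, FDR 2.9e-14) and fell in WT by 1.01 on the log2 scale. At 3 h both zed1-D libraries of these 3 genes lay above both WT libraries. On the other side, IGMT5, an indole glucosinolate methyltransferase, fell from 55.4 and 65.8 CPM to 30.4 and 37.9 CPM (-0.82 ± 0.10, FDR 3.7e-08, unblocked 0.1) and rose in WT (0.48, FDR 0.00036, unblocked 0.47). PYK10, a glucosidase of endoplasmic reticulum bodies, fell from 78.8 and 76.9 CPM to 38.9 and 36.6 CPM (-1.05 ± 0.09, FDR 5.4e-11), and AAP2, an amino acid permease, from 222 and 160 CPM to 133 and 96.4 CPM (-0.73 ± 0.09, FDR 3.9e-08, unblocked 0.29). In WT, PYK10 was not called (0.06, FDR 0.72) and AAP2 rose (0.38, FDR 0.0014, unblocked 0.79). The differences of IGMT5 and AAP2 were not called without the replicate term (FDR 0.13 and 0.57), and that of PYK10 was (FDR 0.0073).

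The later samples of zed1-D, at 12 h and 48 h, share the 0 h libraries with this comparison, so values are set side by side only. Of the 645 genes that rose by at least 1, 566 were called higher against 0 h at 12 h and 542 at 48 h, and of the 195 that fell by at least 1, 122 and 105 were called lower. ICS1 stood at 285 and 372 CPM at 12 h and at 122 and 145 CPM at 48 h, so the 3 h level of 171 and 218 CPM lay between them. PR2 went on to 608 and 553 CPM and then 2358 and 2311 CPM, and PR1, not called at 3 h, to 314 and 455 CPM and then 354 and 569 CPM. UGT76B1 was back at 14.2 and 14.3 CPM at 48 h after 159 and 170 CPM at 12 h. HSP90.1 reached 118 and 273 CPM at 12 h and stood at 20.1 and 27.5 CPM at 48 h, below its 3 h level in both libraries. GRP7 returned to 735 and 623 CPM at 12 h and 798 and 800 CPM at 48 h, above its 3 h level and below that at 0 h.

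**Figure D5:**
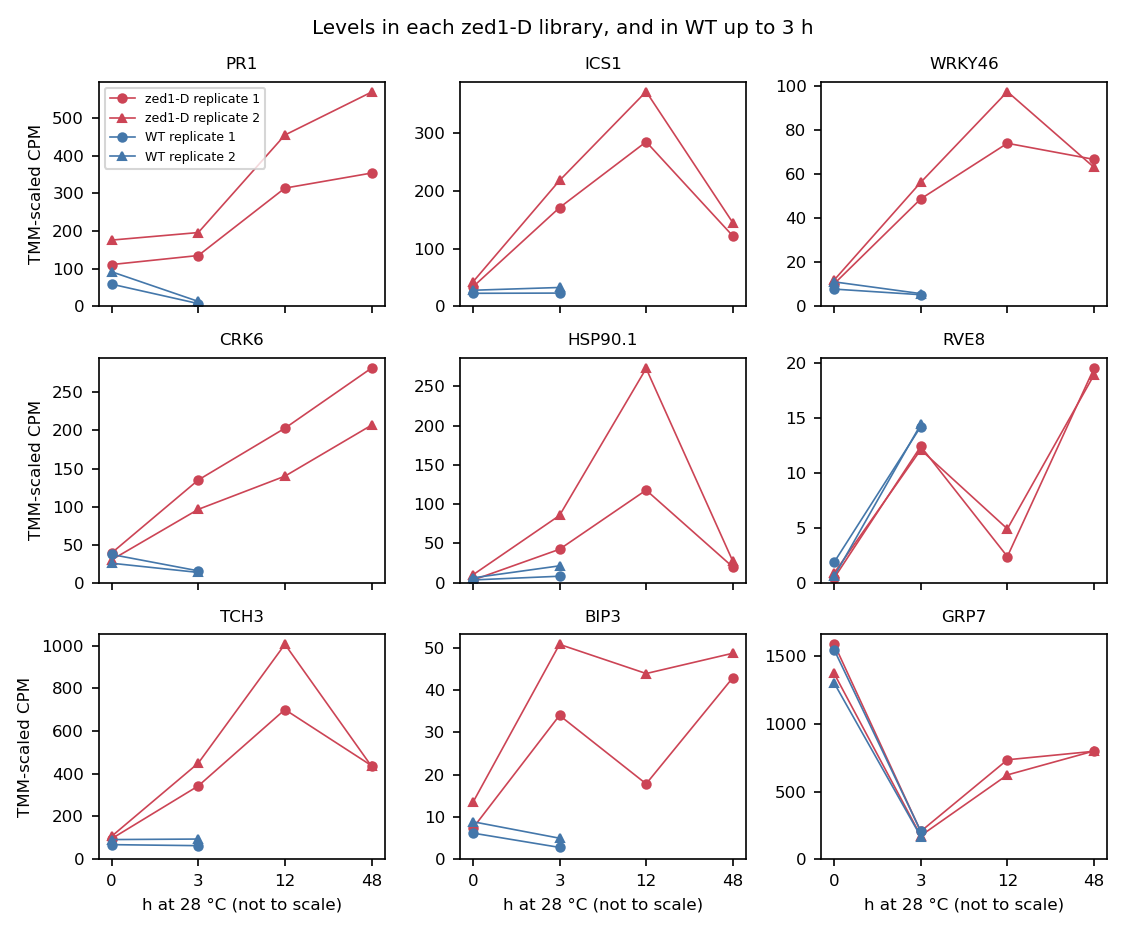
TMM-scaled CPM of 9 named genes in each zed1-D library (red) at 0, 3, 12 and 48 h, and in each WT library (blue) at 0 and 3 h, with circles for replicate 1 and triangles for replicate 2; the time axis is not to scale. ICS1, WRKY46 and CRK6 are separate between genotypes at 3 h, ICS1 already at 0 h, whereas GRP7 overlaps at 3 h.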

How the data were processed

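RNA-seq counts of 16 libraries (8 groups of 2) were used, of which the 4 from zed1-D at 0 h and 3 h carry the comparison. Each deposited table gives, per the file headers, a count of reads mapped uniquely to a gene and the RPKM that the authors made from it. A gene not listed for a library was taken as 0. The deposited RPKM were only checked against the counts (largest relative difference 0). The submitters' processing notes name the build TAIR10. Aligner, counter and strand setting: not given in the sources used here. Promoters were read from the RefSeq TAIR10.1 annotation by locus name, since the files hold no coordinates. Depth was 4.74 M to 11.39 M reads per library, which limits precision for low genes.

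edgeR 4.0.16 (limma 3.58.1, R 4.3.3) was fitted to all libraries with TMM scaling, the default expression filter (19312 of 25444 genes kept), 8 group means and the replicate number as a block, with 7 residual degrees of freedom and a common coefficient of variation of 5.67% (22.6% without the block). P-values are two-sided. The titles pair the libraries by number, and same-numbered libraries deviated together (correlations 0.53 to 0.71 over 28 pairs of groups, 0.65 for the zed1-D times). What same-numbered libraries share is not stated. On simulated counts for zed1-D at 3 h against 0 h over 19312 genes, the blocked fit recovered 53.7%, 98.5% and 100% of 67, 67 and 66 genes changed by a log2 of 0.5, 1 and 2, with 7 of 175 calls false (4%). Without the block the shares were 0%, 23.9% and 86.4%, with 0 of 73 false. The simulated counts were drawn from the blocked fit itself, replicate effect included, with the changed genes taken above a minimum mean CPM. They therefore cannot show whether the block suits the real libraries.

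Members, the 31 gene lists (458 genes, 429 tested) and tests were chosen with earlier results of these data known. Named genes are the 12 largest called changes each way whose mean log2 CPM reached 2, groups that do not overlap and both pairs in the same direction, the 8 smallest p each way for the difference between genotypes, up to 4 members per list by p (all for lists of up to 6), and ZED1, ZAR1, SNC1, PR1 and PR2. Alternatives were no block, the compared groups or zed1-D alone, DESeq2 1.42.0, RLE scaling, no filter, counts thinned to 4742719 reads, no organelle genes, each library left out and a log2 fold minimum of 1. Some list members counted in the totals are not reported here by name.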

Additional observations from a re-analysis of the deposited data

Results flagged for a closer look

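The change from 0 h to 3 h differed between zed1-D and WT, by a test of the difference itself, for 1093 genes, and the 16 named for this difference are given here with the zed1-D change minus the WT change on the log2 scale. The zed1-D change lay above that of WT by 3.05 for PR1, 2.77 for CRK6, 2.66 for PCR1, 2.49 for XBAT34, 2.37 for PR2, 2.27 for RLP34, 2.01 for LURP1 and 1.96 for SOBIR1. It lay below that of WT, with differences of -1.92 for AT5G03545, a gene annotated as responding to phosphate starvation, -1.59 for AT2G30766, -1.45 for AT4G22505, -1.30 for IGMT5, -1.14 for AT1G52000, -1.12 for AAP2, -1.11 for PYK10 and -0.90 for CAB2. Without the replicate term, LURP1, AT5G03545, AT4G22505, IGMT5, AAP2 and CAB2 were not called for this difference (FDR 0.87, 0.13, 1.0, 0.13, 0.57 and 1.0). AT1G52000, of a mannose-binding lectin family, was called higher in zed1-D as well (0.29, FDR 0.0063, unblocked 0.49). That call ended when either of 2 libraries was left out, 1 of them the first 0 h library (0.23). AT4G22505, of a lipid-transfer protein family, was called lower in zed1-D (-0.65, FDR 0.00035) and lost that without the first 0 h library (-0.40).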

How the results depend on the processing

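The number of genes called in zed1-D was 4608 and moved by over 1.5 times to 525 with no replicate block, 3043 in DESeq2 and 840 with a log2 minimum of 1, and ran from 2193 to 3386 with 1 library left out. The 1093 differences from WT moved to 205 with no replicate block, 716 in DESeq2 and 619 with the minimum, and ran from 638 to 924 with 1 library left out. The 3912 genes called in WT moved to 343 with no replicate block, 6111 with the compared groups alone and 641 with the minimum, and ran from 1922 to 2966. The 220 called list members moved to 73 with no replicate block and 88 with the minimum, and ran from 161 to 194. All 525 unblocked calls and 3033 of the 3043 in DESeq2 were among the 4608, with the same direction. The cause of these moves was not tested, save that a fold minimum removes calls by construction. With the compared groups alone 6484 genes were called in zed1-D, of which 4530 were shared. Signs turned only for 5 named genes that were not called. PR4 stood at -0.02 with no replicate block and in DESeq2 and at -0.01 with RLE scaling or thinned counts, and TCH2 at -0.03 in thinned counts. With 1 library left out, PR4 ran from -0.15 to 0.10, ZED1 from -0.44 to 0.17, TCH2 from -0.13 to 0.16, ANX1 from -0.13 to 0.54 and PPME1 from -0.51 to 0.09. When a library is left out, its group has 1 library, assumed to vary like the other groups. Changes under a log2 of about 0.5 are at the limit of this depth and number of libraries.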
